A study of Homo sapiens with 30 samples.

Results

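The 29 genes described here encode the enzymes that make cholesterol and fatty acids, together with their main regulators and a sterol carrier: *ACAT2*, *HMGCS1*, *MVK*, *PMVK*, *MVD*, *IDI1*, *FDPS*, *FDFT1*, *SQLE*, *LSS*, *CYP51A1*, *TM7SF2*, *MSMO1*, *NSDHL*, *HSD17B7*, *EBP*, *SC5D*, *DHCR7*, *INSIG1*, *SREBF1*, *SREBF2*, *STARD4*, *ACLY*, *ACACA*, *FASN*, *SCD*, *ELOVL6*, *FADS1* and *FADS2*. They were found by the gene name printed for each probe in the scanner files, 29 of the 43972 gene names on the array. Together they have 39 probes of 58201, and each gene is represented by its brightest probe. That probe was well above background on all 30 arrays for each of the 29 genes, so that no member was lost to the filter on dim probes. Of all probes, 32142 passed that filter and were tested.

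The cells were BEAS-2B, an immortalized human line from bronchial epithelium, grown at the air-liquid interface. They received either a dose of 10 mg of intact birch pollen grains or a mock exposure, labelled air, with the same handling but with the grains held back by a mesh. Lysis followed at 10 min, at 55 min, at 2h25 min, at 6h50 min and at 24 h, and each of the 10 groups has 3 one-colour Agilent arrays. All cells are of 1 line, and the methods state that exposures were repeated on different days. Values are log2 signals after subtracting the 75th percentile of the array, called log2 levels below, so that 0 is the level of a fairly bright probe. Each of the 30 arrays had 8 of 9 epithelial markers well above background, and the ninth, *TP63*, was so on 21 arrays. Markers of other cell types were split. *MUC5B*, *DNAI1*, *COL3A1* and *PECAM1* were well above background on 0 arrays, *FOXJ1* on 8 and *CD3E* on 17. *SCGB1A1* was so on 29 arrays, *MUC5AC* and *COL1A2* on 27, *VWF* on 28 of the 29 that hold its probe, and *COL1A1*, *PDGFRB*, *THY1*, *CDH5*, *PTPRC* and *CD14* on all 30.

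Cholesterol is built from acetyl-CoA through mevalonate, isoprenoid units, squalene and a series of sterols. Fatty acids are built from the same acetyl-CoA and are then elongated and desaturated. Both routes are switched on by the SREBP transcription factors, which *SREBF1* and *SREBF2* encode: when the membranes of the endoplasmic reticulum are poor in sterol, SCAP escorts SREBP to the Golgi, where site proteases release its active part, and INSIG proteins hold SCAP back when sterol is plentiful. In airway epithelium these lipids go into membranes and, in the alveoli, into surfactant.

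Near the start of transcription, SREBP is known to act beside the factors NF-Y and Sp1, which bind the CCAAT box and the GC box. RefSeq promoters on GRCh38.p14, from 250 bases before to 50 after the start, were found for 25 of the 29 genes, in 34 entries. The letters CCAAT were present, on either strand, in promoters of 20 of these 25 genes and in 70.6% of their 34 entries, against 34.6% of all 35116 promoters. The GC box, GGGCGG, was present for 24 genes and in 88.2% of their entries, against 45.0% of all. TCACNCCAC, 1 form of the sterol regulatory element, was present for *SREBF2* alone, against 1.13% of all promoters. The promoters of 4 genes follow, in lower case with these 3 motifs in capitals on either strand, for genes whose levels are described below. *FDPS* lies at chr1:155308616-155308915 on the plus strand, *TM7SF2* at chr11:65111622-65111921 on the plus strand, *FADS1* at chr11:61816954-61817253 on the minus strand and *SREBF2* at chr22:41832855-41833154 on the plus strand.
FDPS: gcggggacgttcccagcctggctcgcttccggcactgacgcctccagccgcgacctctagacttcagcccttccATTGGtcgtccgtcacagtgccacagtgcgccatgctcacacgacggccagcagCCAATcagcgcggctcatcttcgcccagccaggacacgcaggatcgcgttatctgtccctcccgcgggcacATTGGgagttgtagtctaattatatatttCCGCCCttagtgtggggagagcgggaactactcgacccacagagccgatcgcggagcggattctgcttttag
TM7SF2: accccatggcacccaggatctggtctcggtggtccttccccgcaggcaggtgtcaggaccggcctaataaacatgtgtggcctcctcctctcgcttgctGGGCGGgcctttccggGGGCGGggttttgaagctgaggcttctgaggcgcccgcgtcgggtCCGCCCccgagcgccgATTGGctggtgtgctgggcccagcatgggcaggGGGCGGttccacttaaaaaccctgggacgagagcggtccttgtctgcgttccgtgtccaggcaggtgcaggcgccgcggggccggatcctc
FADS1: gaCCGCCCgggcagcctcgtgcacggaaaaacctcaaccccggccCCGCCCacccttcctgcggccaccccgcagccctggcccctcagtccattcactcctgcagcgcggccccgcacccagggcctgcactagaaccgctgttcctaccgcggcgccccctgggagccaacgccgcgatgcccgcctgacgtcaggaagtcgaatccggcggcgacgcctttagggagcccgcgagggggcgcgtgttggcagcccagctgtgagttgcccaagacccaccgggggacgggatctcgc
SREBF2: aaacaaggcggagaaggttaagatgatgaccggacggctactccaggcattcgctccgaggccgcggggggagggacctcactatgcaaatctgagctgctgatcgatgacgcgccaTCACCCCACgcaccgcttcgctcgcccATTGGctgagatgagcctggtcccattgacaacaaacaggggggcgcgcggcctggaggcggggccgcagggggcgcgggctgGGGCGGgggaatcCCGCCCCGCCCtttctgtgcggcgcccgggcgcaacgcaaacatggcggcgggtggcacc
*FDPS* has CCAAT 176, 122 and 51 bases before the start and a GC box at 22, *TM7SF2* has CCAAT at 74 among 4 GC boxes, *FADS1* has 2 GC boxes and no CCAAT, and *SREBF2* has the sterol element at 133 and CCAAT at 106. These are matches of letters in a window, and whether a factor binds there was not measured.

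The 5 comparisons of pollen with mock ask whether the grains changed these genes beyond the handling in the chamber. None of the 29 genes was called at any of the 5 times, where called means an adjusted p under 0.05 in limma, with Benjamini-Hochberg adjustment over all 32142 probes, and a fold change of 1.1 or more. The share of all probes called was itself 0% at 10 min, 0.00311% at 55 min, 0.0342% at 2h25 min, 0.0436% at 6h50 min and 0.00311% at 24 h, so that a count of 0 among 29 is near the background. At an unadjusted p under 0.05 in limma the brightest probes gave *SC5D* at 55 min, 0.28 lower with pollen on the log2 scale. They gave *SREBF2* at 6h50 min and no other gene at any time, beside 5.09% and 7.44% of all probes at these times. At 24 h the dimmer probe of *ACACA* was lower with pollen (-0.33, unadjusted p = 0.039 in limma) and that of *ELOVL6* higher (0.54, unadjusted p = 0.048). Neither was called, and 3.61% of all probes passed the unadjusted threshold at 24 h. The median difference of the 29 genes, pollen minus mock, was -0.03, 0.03, 0.03, 0.07 and 0.02 over the 5 times in order, beside medians over all probes between -0.03 and 0.01.

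The intervals bound how large an effect of pollen on the brightest probe of each gene could have been missed. The 95% intervals, 1 per gene and not adjusted for their number, lay within a 2-fold change in either direction for all 29 genes at 10 min, 55 min, 2h25 min and 24 h and for 28 at 6h50 min. At 24 h the differences ran from -0.09 in *SREBF1* (95% interval -0.32 to 0.14) to 0.23 in *FADS2* (-0.22 to 0.68). Dimmer probes went beyond that range at 24 h, with 0.54 (0.005 to 1.07) in *ELOVL6* and -0.33 (-0.65 to -0.02) in *ACACA*. A dimmer probe of *HSD17B7* did so too, with 0.31 (-0.23 to 0.85). The interval of the dimmer *ELOVL6* probe reached past 2-fold. At 2h25 min *HMGCS1*, which makes the precursor of mevalonate, differed most, with 0.35 (-0.08 to 0.79).

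**Figure D1:**
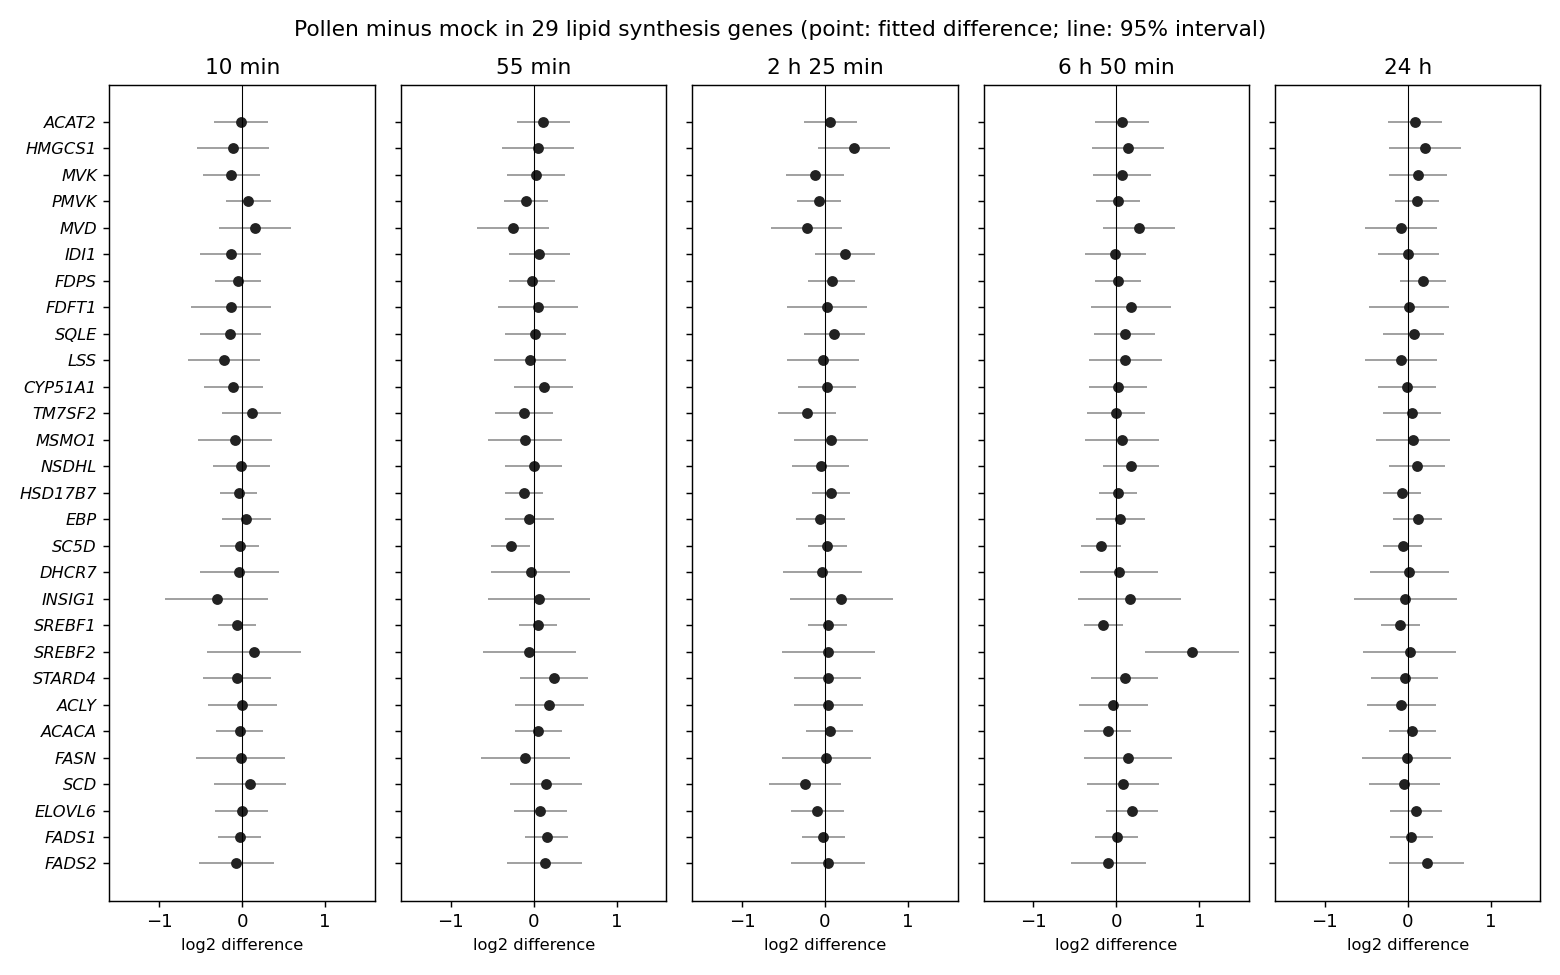
Difference between pollen and mock for each of the 29 genes at 5 times, as the fitted log2 difference (horizontal axis, points) with its 95% interval (lines); genes are in pathway order from top to bottom. The values are of the brightest probe of each gene. All intervals but that of *SREBF2* at 6h50 min lie within a 2-fold change, and 0 genes were called.

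*SREBF2*, the regulator of sterol synthesis, was the 1 gene that stood apart at 6h50 min. Its log2 levels with mock were 0.24, 0.88 and 2.21 on the 3 arrays, and with pollen 2.04, 2.03 and 2.00. In all other groups it lay between 1.69 and 2.32. The difference was 0.91 ± 0.27 (SE, n = 3 arrays a group), with an adjusted p of 0.22 in limma. On mock replicates 1 and 2 the probe lies in an area of the slide where the signals of neighbouring probes are lower than on the other arrays, and with values in such areas left out the difference was -0.19. Without mock replicate 3, the 1 mock array whose *SREBF2* value was not low, the difference was 1.46 and past the threshold. The low level of *SREBF2* in mock at 6h50 min rests on the 2 arrays with a dim area.

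The change over time was compared within each exposure, each later time against 10 min. The slides bear on these values. All arrays of 10 min are on 1 slide, all arrays of 6h50 min are on another, scanned on another day, and all arrays of 24 h are on a further slide with 1 mock and 1 pollen array of 2h25 min. Time and slide therefore cannot be told apart at 6h50 min and are linked only through few arrays at 24 h. The slide of 10 min is joined to the others by mock replicate 1 of 55 min alone.

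At 24 h, 13 of the 29 genes were lower than at 10 min with mock and 13 with pollen, against 20% and 19.5% of all probes called lower. The genes lower in both were 11, which is 84.6% of each 13: *ACAT2*, *MVK*, *FDPS*, *CYP51A1*, *TM7SF2*, *DHCR7*, *SREBF1*, *ACACA*, *ELOVL6*, *FADS1* and *FADS2*. *FDFT1* and *SQLE* were called with mock alone, and *MVD* and *HSD17B7*, whose probes disagree, with pollen alone. *PMVK* was the 1 gene called higher in each, against 17.5% of all probes with mock and 15.8% with pollen. The median change of the 29 genes was -0.44 with mock and -0.40 with pollen, beside -0.06 and -0.07 over all probes. Groups without overlap, named for single genes below, are common over all probes. At 24 h against 10 min, 28.8% of probes were lower without overlap with mock and 26.8% with pollen, and 24.3% and 21.7% were higher. At 6h50 min against 10 min, 33.7% and 37.3% were lower without overlap. In these bulk samples, fewer cells of a kind and less RNA per cell cannot be told apart. The change from 10 min to 24 h differed between pollen and mock for 0 genes past the threshold and 0% of all probes. At an unadjusted p under 0.05 in limma there were 0 genes, beside 2.96% of all probes. The 95% interval of this difference in change lay within 2-fold for 28 of 29 genes.

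**Figure D2:**
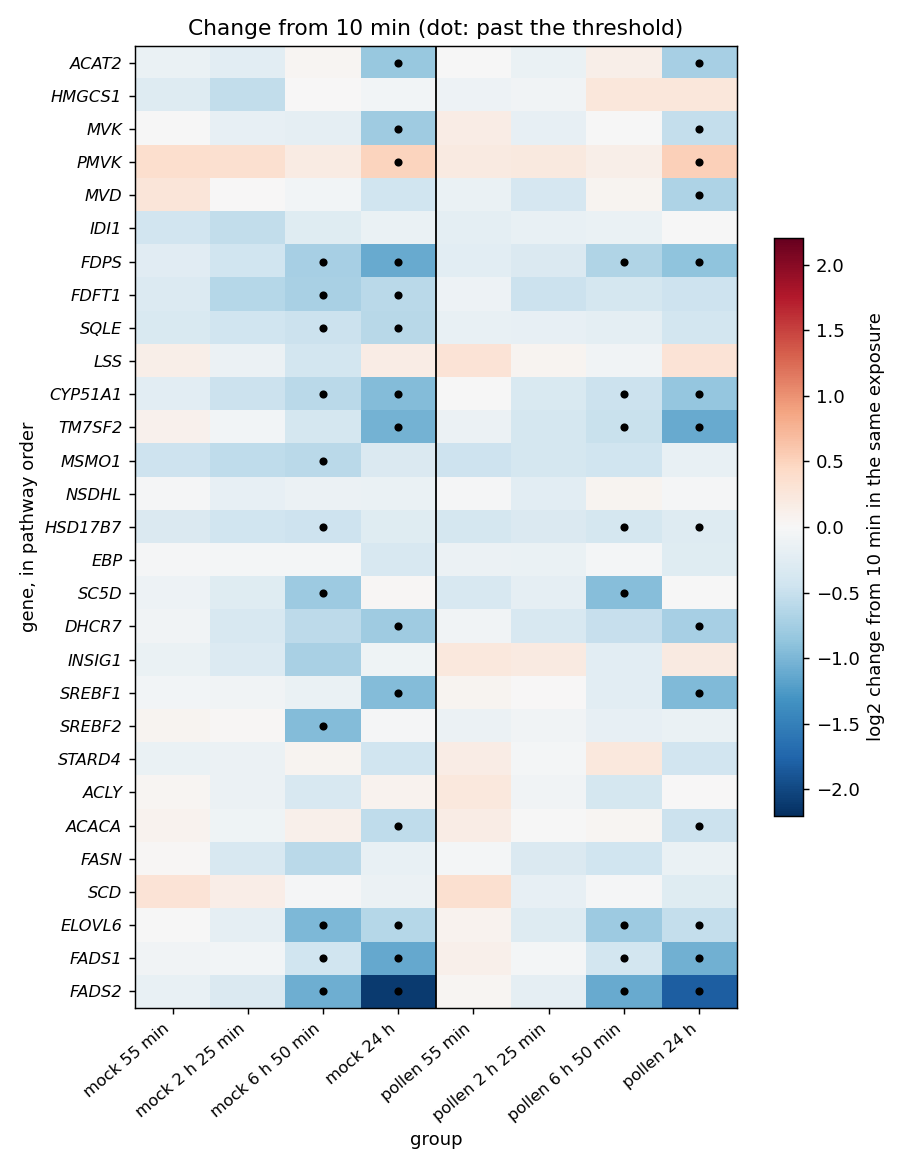
Change of each of the 29 genes from 10 min, as the log2 difference of group means (colour, blue is lower), in mock (left 4 columns) and pollen (right 4 columns); a dot marks a change past the threshold. The dots are at 6h50 min and 24 h, and *FADS2* has the deepest change in both exposures.

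Among the genes of acetyl-CoA supply and mevalonate, *ACAT2*, a thiolase that joins acetyl-CoA units, had log2 levels of 4.32, 4.79 and 4.92 at 10 min with mock and 3.81, 3.97 and 3.77 at 24 h. With pollen they were 4.45, 4.73 and 4.81 at 10 min and 3.93, 3.89 and 3.99 at 24 h. The groups did not overlap in either exposure, and the level fell by 0.83 ± 0.16 (SE, adjusted p = 0.00024 in limma) with mock and by 0.72 ± 0.16 (adjusted p = 0.0011) with pollen. *MVK*, which phosphorylates mevalonate, fell by 0.78 with mock (adjusted p = 0.00081 in limma) and by 0.53 with pollen (adjusted p = 0.017).

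The kinase of the next step, *PMVK*, went the other way. Its log2 levels were 1.52, 1.20 and 1.23 at 10 min and 1.88, 1.97 and 1.59 at 24 h with mock, and 1.61, 1.32 and 1.24 against 1.95, 2.07 and 1.75 with pollen. The groups did not overlap in either exposure, and the rise was 0.49 ± 0.13 (adjusted p = 0.0042 in limma) with mock and 0.53 ± 0.13 (adjusted p = 0.0029) with pollen. *MVD*, the decarboxylase that follows, was lower by 0.68 with pollen (adjusted p = 0.014 in limma), and its change with mock was -0.45 (adjusted p = 0.096). *HMGCS1* had changes of -0.06 and 0.25, neither past the threshold.

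*FDPS*, which builds farnesyl diphosphate, the branch point to sterols and to prenylated proteins, is among the genes with the clearest course. Its log2 levels with mock were 4.72, 5.18 and 5.01 at 10 min, 4.22, 4.31 and 4.20 at 6h50 min and 3.85, 3.85 and 3.86 at 24 h. With pollen they were 4.69, 5.09 and 4.99, then 4.23, 4.27 and 4.29, then 4.0, 3.97 and 4.13. Of these 3 times, each later group lay wholly below the earlier one in both exposures. The groups of 55 min overlapped with those of 10 min, at 4.51 to 5.04 with mock and 4.53 to 4.96 with pollen. The change at 24 h was -1.12 ± 0.13 (2.17-fold lower, adjusted p = 1.4e-06 in limma) with mock and -0.89 ± 0.13 (1.85-fold lower, adjusted p = 3.3e-05) with pollen.

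The enzymes next to it moved less. *FDFT1* and *SQLE*, which make squalene and its epoxide, were lower by 0.60 and 0.61 with mock (adjusted p = 0.046 and 0.0089 in limma), and their changes with pollen were -0.45 and -0.40, neither past the threshold (adjusted p = 0.13 and 0.083). *IDI1*, the isomerase of isoprenoid units, had changes of -0.15 and 0.00 at 24 h, and none of its changes from the earliest time was called.

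Of the 9 genes of the sterol ring, 3 were called lower at 24 h with mock and 4 with pollen, the fourth being *HSD17B7*. *TM7SF2*, a sterol reductase, had log2 levels of 0.20, 0.33 and 0.09 at 10 min and -0.73, -0.86 and -0.94 at 24 h with mock, and 0.28, 0.55 and 0.12 against -0.71, -1.06 and -0.59 with pollen. All arrays of 24 h lay below all arrays of 10 min. The change was -1.05 ± 0.17 (adjusted p = 4.9e-05 in limma) with mock and -1.11 ± 0.17 (adjusted p = 4.1e-05) with pollen. *CYP51A1*, the demethylase of lanosterol, fell by 0.95 and 0.85 and *DHCR7*, which reduces the direct precursor of cholesterol, fell by 0.78 and 0.73.

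Other genes of the ring did not pass the threshold at 24 h. *LSS*, the cyclase that closes the ring, had changes of 0.16 and 0.31, *NSDHL* of -0.15 and -0.03, *EBP* of -0.34 and -0.27 and *MSMO1* of -0.32 and -0.17. *SC5D*, a desaturase and the dimmest member, was low at 6h50 min only. Its log2 levels were -2.52, -2.49 and -2.51 at 10 min, -3.18, -3.31 and -3.41 at 6h50 min and -2.65, -2.35 and -2.45 at 24 h with mock. With pollen they were -2.60, -2.56 and -2.46, then -3.41, -3.56 and -3.47, then -2.77, -2.38 and -2.48. The groups of 6h50 min overlapped with no other group, with changes from 10 min of -0.79 ± 0.11 (adjusted p = 3.1e-05 in limma) and -0.94 ± 0.11 (adjusted p = 4.3e-06), and at 24 h the changes were 0.02 and -0.01.

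*HSD17B7*, a sterol ketoreductase, has 5 probes that disagree. The brightest was lower at 24 h with pollen (-0.29, adjusted p = 0.043 in limma) and was not called with mock (-0.26, adjusted p = 0.063). The dimmest of the 5, well above background on 19 arrays, was higher by 1.19 with mock and by 1.03 with pollen (adjusted p = 0.0063 and 0.017 in limma). The mean over the 5 probes changed by 0.22 with pollen, which is the opposite direction. At 6h50 min, 2 of the 5 probes were called lower in each exposure, the brightest among them, and another had changes of 0.51 with mock and 0.50 with pollen, not past the threshold. Counts that include *HSD17B7* refer to its brightest probe alone, and the direction of the gene is uncertain.

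Among the regulators, *SREBF1*, which drives fatty acid synthesis above all, was lower at 24 h alone. Its log2 levels with mock were 4.22, 4.09 and 4.34 at 10 min, 4.08, 4.14 and 4.0 at 6h50 min and 3.34, 3.34 and 3.12 at 24 h. With pollen they were 3.93, 4.23 and 4.30, then 3.90, 4.03 and 3.81, then 3.23, 3.22 and 3.08. The 24 h groups lay below all others. The change from 10 min was -0.95 ± 0.11 (1.93-fold lower, adjusted p = 1.2e-06 in limma) with mock and -0.98 ± 0.11 (1.97-fold lower, adjusted p = 1.5e-06) with pollen.

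*SREBF2* had changes of -0.03 and -0.15 at 24 h, and *INSIG1*, whose protein holds SREBP back, of -0.09 and 0.19. *STARD4*, which carries cholesterol between membranes, had changes of -0.44 (adjusted p = 0.082 in limma) and -0.41 (adjusted p = 0.11). None of these 3 passed the threshold at 24 h.

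Of the 7 fatty acid genes, 4 were called lower at 24 h in each exposure. *ACLY*, *FASN* and *SCD*, which supply acetyl-CoA, build palmitate and desaturate its product, had changes between -0.26 and 0.08 at 24 h and were not called at any time. *ACACA*, the carboxylase that makes malonyl-CoA, was lower by 0.56 and 0.48 (adjusted p = 0.0024 and 0.0095 in limma). *ELOVL6*, an elongase, was lower at 6h50 min by 0.99 with mock and 0.80 with pollen and at 24 h by 0.63 and 0.53.

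The desaturases of polyunsaturated fatty acids, *FADS1* and *FADS2*, were both lower, and *FADS2* had the deepest change of the 29 genes in both exposures. It had log2 levels of 4.23, 4.79 and 4.91 at 10 min, 3.38, 3.77 and 3.55 at 6h50 min and 2.53, 2.58 and 2.50 at 24 h with mock. With pollen they were 4.35, 4.60 and 4.77, then 3.23, 3.64 and 3.54, then 2.79, 2.58 and 2.94. The 3 times did not overlap in either exposure. The change at 24 h was -2.11 ± 0.22 (4.31-fold lower, adjusted p = 2.5e-07 in limma) with mock and -1.81 ± 0.22 (3.49-fold lower, adjusted p = 2.6e-06) with pollen.

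*FADS1* had log2 levels of 4.92, 4.94 and 5.17 at 10 min and 3.75, 4.0 and 3.90 at 24 h with mock, and 4.84, 4.97 and 5.12 against 3.83, 3.87 and 4.07 with pollen. The groups lay about 1 log2 unit apart in both exposures. The change was -1.12 ± 0.12 (adjusted p = 5.9e-07 in limma) with mock and -1.05 ± 0.12 (adjusted p = 2.2e-06) with pollen. *FADS1* and *FADS2* are neighbours on chromosome 11, on opposite strands, and their RefSeq spans overlap at their starts.

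**Figure D3:**
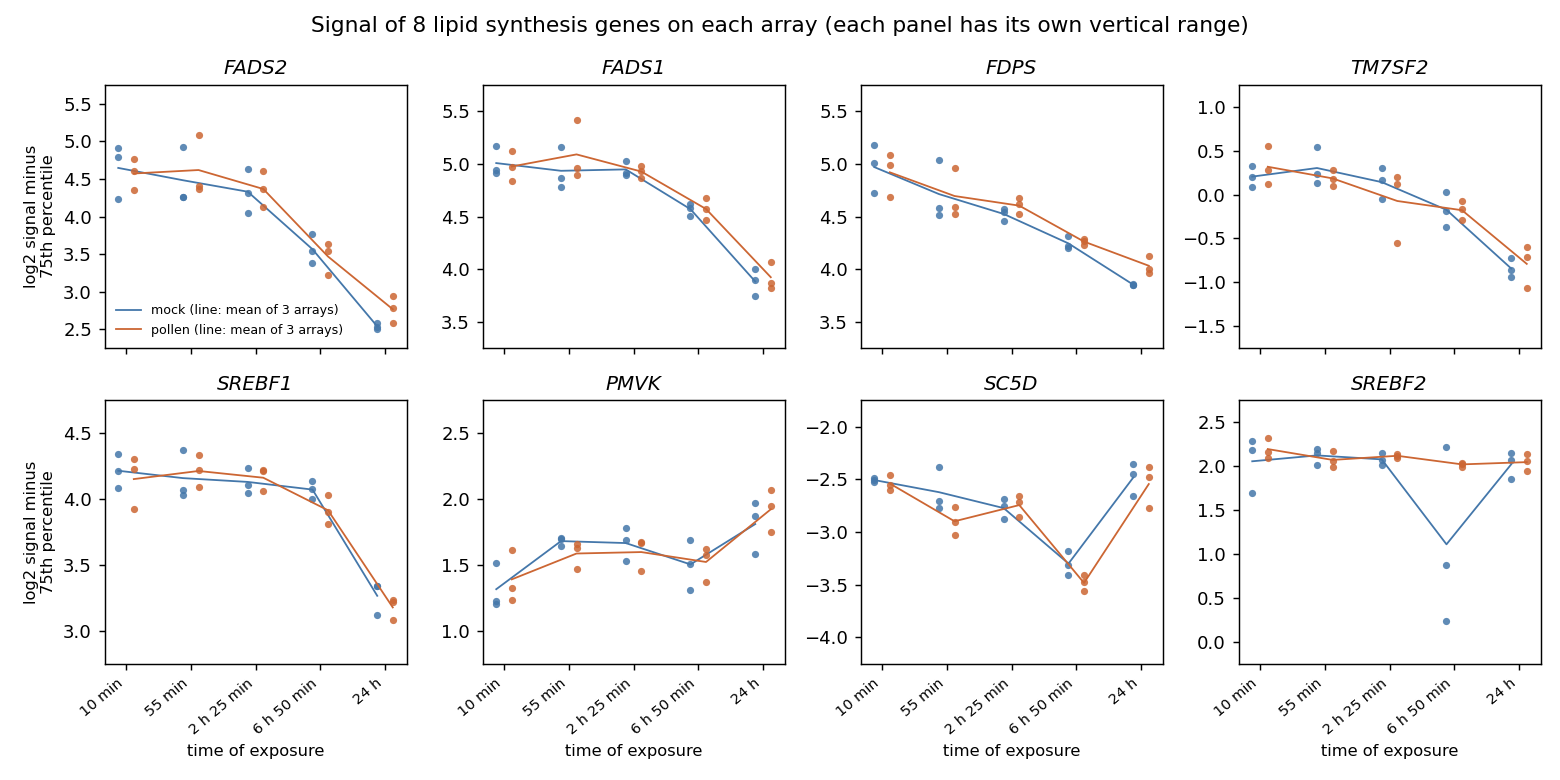
Log2 level (vertical axis, with a range of its own in each panel) of 8 of the genes on each of the 30 arrays (points) over the 5 times (horizontal axis, not to scale), in mock (blue) and pollen (orange); lines join the means of 3 arrays. *FADS2*, *FADS1*, *FDPS*, *TM7SF2* and *SREBF1* are lowest at 24 h, *PMVK* is highest there, *SC5D* is lowest at 6h50 min, and 2 mock arrays of 6h50 min are low in *SREBF2*.

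For *FADS2* and *SREBF1* the deposited arrays hold a second, dimmer probe that did not follow the first. The first 30 of the 60 bases of each probe are given here, in lower case and with nothing marked. The place of the probes within the transcripts was not examined. Positions are on hg19.
FADS2 bright probe: ctgatcgtaatgtttatcatgttacttccc
FADS2 dim probe: ccctgctccgagctccacaccctttacaaa
SREBF1 bright probe: ggctcctgtgctactttgccttttgcaaac
SREBF1 dim probe: atgtgctgactagtgagagtgcttgggccc
The *FADS2* probes lie at chr11:61634754-61634813 and chr11:61593923-61593982, with 40771 bases between them, and the *SREBF1* probes at chr17:17715419-17715478 and chr17:17715304-17715363, with 55 bases between them. The dim *FADS2* probe had log2 levels between -2.60 and -1.89 at 10 min and 24 h, and its change at 24 h was -0.07 with mock and 0.07 with pollen. The dim *SREBF1* probe changed by 0.29 with mock and 0.29 with pollen, neither past the threshold (adjusted p = 0.19 and 0.20 in limma). The decline of both genes is thus read from the bright probe alone. The second probe of *ELOVL6* was lower with mock (-1.19, adjusted p = 0.00090 in limma) and was not called with pollen (-0.63, adjusted p = 0.060). That of *ACACA* was lower with pollen (-0.59, adjusted p = 0.0044 in limma) and was not called with mock (-0.26, adjusted p = 0.18).

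At 6h50 min, 11 genes were called lower with mock and 8 with pollen, against 25.3% and 28.3% of all probes, and the median over all probes was itself shifted by -0.17 in each. The members' shares were 37.9% with mock and 27.6% with pollen, and no difference between the exposures is read from them. With values in dim areas left out, 10 genes were called with mock. With the 75th percentile taken over the own probes of each array, 4 were called in each exposure. Beside them, 3163 of all probes were called lower with mock and 3974 with pollen. Called in both were *FDPS*, *CYP51A1*, *HSD17B7* by its brightest probe, *SC5D*, *ELOVL6*, *FADS1* and *FADS2*, 63.6% of the genes called with mock and 87.5% of those with pollen. *FDFT1*, *SQLE*, *MSMO1* and *SREBF2* were called with mock alone, the last with its 2 arrays in a dim area, and *TM7SF2* with pollen alone. The 5 genes of acetyl-CoA supply and mevalonate had 0 called in either exposure. The difference between pollen and mock in the change from 10 min was called for 0 genes, as for 0% of all probes.

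At 55 min and 2h25 min no gene was called in either exposure. The share of all probes called lower was 0.0716% and 0.0218% with mock and 0.42% and 1.03% with pollen, so that few calls would be found among 29 genes at the background rate. At an unadjusted p under 0.05 there were 4 genes at 55 min and 10 at 2h25 min with mock, and 3 at each time with pollen. The share of all probes at that unadjusted threshold was 10.8% and 12.2% with mock and 15% and 16.5% with pollen. Between pollen and mock, the change from 10 min was called for 0 genes at 55 min and 0 at 2h25 min, where all probes gave 0% and 0.00311%.

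The early values depend on the slide. With slide as a fixed block, the median change of the 29 genes at 2h25 min was 0.19 with mock and 0.25 with pollen, against -0.19 and -0.18 without it, so that no early direction is given. Every change from 10 min in that fit rests on mock replicate 1 of 55 min, which shares the slide of 10 min. On the slide that holds arrays of both 55 min and 2h25 min, 0 of 29 genes were called between these times over both exposures, as were 0% of all probes, with a median of 0.02.

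At 24 h the values also changed when slide was in the fit. The fit with slide as a fixed block joins 24 h to 10 min through 2h25 min and 55 min. In it the median of the 29 genes was 0.01 with mock and -0.05 with pollen, beside -0.07 and -0.09 over all probes. It called 2 genes with mock and 0 with pollen. Its share of all probes called is not given here, so that no background stands beside these counts. The 2 were *FADS2* with -1.43 (adjusted p = 0.033 in limma) and *FADS1* with -0.75 (adjusted p = 0.038), both with mock. With pollen *FADS2* had -1.13 (adjusted p = 0.12 in limma) and *FADS1* -0.68 (adjusted p = 0.081). The standard error of a gene was larger in that fit, with a median of 0.31 against 0.18. Its changes from 10 min all rest on mock replicate 1 of 55 min, so that the size of the slide effect is not well determined. *FADS2* was 4.92 on that array, and 4.27 and 4.26 on mock replicates 2 and 3 of 55 min.

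The slide with all 6 arrays of 24 h also holds 2 arrays of 2h25 min, which allows a comparison that stays on 1 slide. Over both exposures, 9 genes were lower at 24 h than at 2h25 min there, against 10.9% of all probes called lower: *FADS2* (-1.68 ± 0.12), *TM7SF2* (-1.03 ± 0.15), *FADS1* (-1.01 ± 0.11), *SREBF1* (-0.94 ± 0.11), *FDPS* (-0.64 ± 0.09), *ACACA* (-0.61 ± 0.09), *ACAT2* (-0.52 ± 0.10), *CYP51A1* (-0.51 ± 0.11) and *DHCR7* (-0.46 ± 0.13), each as log2 change ± SE in limma. *HMGCS1* (0.64 ± 0.11) and *IDI1* (0.57 ± 0.12), early enzymes of the route, were higher, 2 of 29 beside 9.14% of all probes, so that this count is near the background. The comparison uses the same 24 h arrays as above and rests on 2 arrays of 2h25 min. Without the mock one, 0 genes were called lower, and without the pollen one 2, *FADS1* and *FADS2*, while leaving out any 1 array of 24 h gave 8 or 9.

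**Figure D4:**
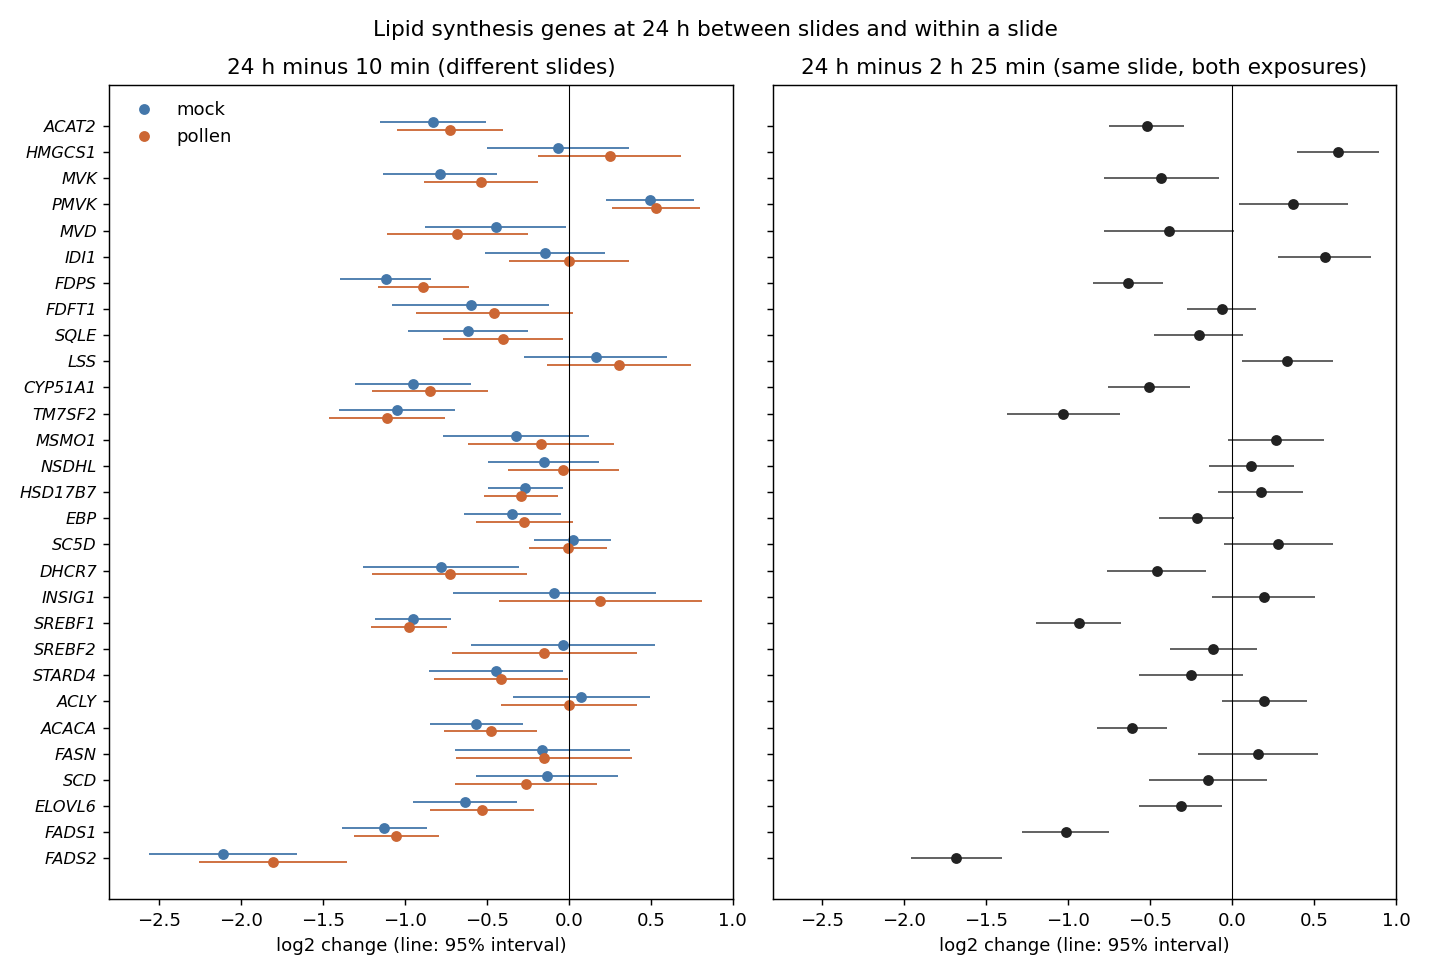
Log2 change of the 29 genes at 24 h (horizontal axis, points, with 95% intervals as lines). Left, against 10 min, in mock (blue) and pollen (orange), on different slides; right, against 2h25 min on the same slide over both exposures. *FADS2*, *FADS1*, *TM7SF2*, *SREBF1* and *FDPS* lie below 0 in both panels, and the intervals of *HMGCS1*, *IDI1* and *LSS*, the last not past the threshold, lie wholly above 0 on the right only.

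The genes around the route were compared between 24 h and 10 min in the same way, on different slides. No value within a slide or with slide in the fit is given for them, so that time and slide are not told apart. In this comparison 20% of all probes were lower and 17.5% higher with mock, and 19.5% and 15.8% with pollen. These lists are short, and a count of 1 in a list is near or below those shares. Of *SCAP*, *MBTPS1*, *MBTPS2* and *INSIG2*, which act in SREBP processing, 3 were higher with mock and the same 3 with pollen. *SCAP*, the escort, rose by 0.33 and 0.31, *MBTPS1*, the first protease, by 0.35 and 0.44, and *INSIG2*, the anchor, by 0.50 and 0.32, and *MBTPS2*, the second protease, was not called. Of 5 genes of sterol export and its receptors, 2 were higher and 1 lower with mock, and 1 was higher with pollen. *ABCG1*, a sterol exporter, rose by 1.55 with mock and by 0.93 with pollen.

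Of 13 further genes of fatty acid and lipid supply, 5 were lower and 1 higher with mock and 4 lower and 1 higher with pollen. *ACSS2*, which makes acetyl-CoA from acetate, fell by 0.84 and 0.83, *ACACB*, the sister of *ACACA*, by 1.18 and 0.79, *PNPLA3*, a lipase, by 0.69 and 0.68, and *ME1*, which supplies reducing power, by 0.50 and 0.45. *ELOVL7*, an elongase, rose by 1.03 and 0.67. Of 8 genes of sterol handling, 2 were higher and 1 lower in each exposure, and of 5 genes of isoprenoid branches 1 was higher and 2 lower with mock and 1 lower with pollen. Between pollen and mock, 0 genes of these 5 lists were called at any time.

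Other measures moved with the time groups. The summed signal of 9 epithelial markers, relative to the 75th percentile, was 247 to 325 at 10 min and 137 to 182 at 24 h over both exposures, and 6 of the 9 were lower and 1, *EPCAM*, was higher at 24 h in each. The summed signal of 5 fibroblast markers, of which 4 were tested and *COL3A1* was at background, was 4.50 to 5.17 at 10 min and 1.61 to 2.05 at 24 h, and *THY1* and *PDGFRB* were lower at 24 h in each exposure. The summed signals of markers of ciliated and secretory cells and of endothelium were at most 0.144 and 0.141 on any array. That of leukocyte markers was at most 1.30. It was 0.53 to 0.59 with mock and 0.78 to 0.93 with pollen at 6h50 min, and 0.60 to 0.65 and 0.75 to 0.77 at 24 h. At the other times mock and pollen overlapped in it, and 0 of these markers were called between pollen and mock at 6h50 min. The share of probes well above background was 44.7% to 59.3% per array and 47.9% to 51.4% at 24 h. It was 47.5% to 57.3% at 10 min and 44.7% to 49.8% at 6h50 min. The 75th percentile of the signal was 1044 to 2111 at 10 min and 578 to 1151 at 6h50 min. The part of these in the change of the lipid genes was not tested.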

How the data were processed

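RNA of BEAS-2B cells was hybridised to 30 one-colour Agilent arrays, 3 in each of 10 groups. The authors deposited the intensity of each spot, background subtracted and detrended by Feature Extraction 11.0.1.1 (probe positions on hg19), as well as a log2 table that the authors made with limma. One array, 55 min pollen replicate 1, is of another design, and 33873 probes are on both. Flagged spots were left out, spots of a probe were averaged, and log2 values were taken minus the log2 of each array's 75th percentile over the shared probes. The filter kept the 32142 probes that exceeded background on every array of some group. In R 4.3.3 with limma 3.58.1, 10 group means were fitted with lmFit and eBayes to all arrays (20 residual and 2.34 prior degrees of freedom), and 17 comparisons were made. A probe is called at an adjusted p under 0.05 and at least 1.1-fold, and for the comparison of changes by the adjusted p. Within a slide, exposure and time were fitted to its arrays alone. A gene is represented by its brightest probe, and all 29 genes are named. The number of arrays limits the precision, and the fit was tested on simulated data. Dim areas are squares of 16 rows and 8 columns of spots with a median over 0.3 below the other arrays. Genes and lists were chosen with earlier results of these data known. The comparison within slides was added after seeing the data. Alternatives were other background corrections, scalings, filters, weights and blocks, and leaving out arrays.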

Additional observations from a re-analysis of the deposited data

How the results depend on the processing

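The count of 0 genes called between pollen and mock was also 0 at 10 min, 55 min, 2h25 min and 24 h under every alternative run, and at 6h50 min it was 1, *SREBF2*, with array weights, and 0 to 1 when leaving out 1 array. The change from 10 min to 6h50 min, pollen against mock, gave 0 to 1 when leaving out 1 array, and both times the 1 came without mock replicate 3 of 6h50 min. With values in dim areas left out, *SREBF2* reversed: its difference at 6h50 min was -0.19 and its change with mock was 0.16. At 6h50 min the count of 11 with mock was 6 with quantile normalization of the processed signal, 4 with the 75th percentile over the own probes of each array, 17 with array weights and 5 with slide as a random block, and it ranged from 7 to 14 when leaving out 1 array. It was 7 without mock replicate 3 of 10 min and without mock replicate 1 of 6h50 min. The count of 8 with pollen was 4, 13 and 4 with the percentile over own probes, array weights and slide as a random block, and ranged from 5 to 12, with 5 without pollen replicate 3 of 10 min and without pollen replicate 1 of 6h50 min. At 24 h the count of 14 with mock was 9 with the percentile over own probes and 2 with slide as a fixed block, and ranged from 11 to 15. The count of 14 with pollen was 8 with the percentile over own probes, 9 with slide as a random block and 0 with slide as a fixed block, and ranged from 9 to 16, with 9 without pollen replicate 3 of 10 min. *HSD17B7* reversed at 24 h with pollen, to 0.11 with slide as a fixed block and to 0.22 as the mean over its probes. At 55 min with pollen the count of 0 became 1 in the deposited log2 table and 2 with array weights. Replicate numbers do not clearly pair the samples: deviations of pollen and mock samples with the same number correlated between -0.12 and 0.52, above 0.1 in each pair at 10 min, 2h25 min and 24 h but not at 55 min and 6h50 min. With the replicate block the counts were 11, 14, 8 and 14 at 6h50 min and 24 h, and the paired fit changed no call count. All other counts stayed within 1.5 times, but the genes could differ. At 6h50 min with mock, normexp background correction and quantile normalization gave 10, with 7 of the 11 shared. The deposited log2 values gave 11, with 8 shared. Of all probes, 8137 were called lower there in the main fit. The number was 1472 with quantile normalization of the processed signal and 3163 with the percentile over own probes. Array weights gave 9512 and slide as a random block 4103. Whether the gene counts follow these shifts was not tested. The cause of these differences was not tested. With slide as a fixed block, the change from 10 min to 6h50 min could not be fitted. In the deposited log2 table, 6 columns of 24 h match another array of their own group.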
